A study of Mus musculus with 18 samples.

Results

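The 10 genes described here are 9 Toll-like receptor genes, *Tlr1*, *Tlr2*, *Tlr3*, *Tlr4*, *Tlr6*, *Tlr7*, *Tlr8*, *Tlr9* and *Tlr13*, and *Cd14*, the co-receptor that hands lipopolysaccharide to the TLR4 complex. They were taken by symbol from the 56748 genes of the count table. The study exposed RAW 264.7 cells, an established mouse macrophage line transformed by Abelson leukemia virus, to tert-butylhydroquinone (TBHQ), a food antioxidant, and then to a bacterial or a viral stimulus, and asked how the antioxidant changes their activation. RNA was sequenced from 18 libraries, with 3 biological replicates in each of 6 conditions. The authors label all 18 libraries WT. Control cells received no treatment. LPS cells received lipopolysaccharide at 0.1 µg/mL for 12 h. PIC cells received poly(I:C), which imitates viral double-stranded RNA, at a dose of 20 µg/mL for 12 h. TBHQ cells received 5 µM TBHQ for 4 h. LPS + TBHQ and PIC + TBHQ cells had the same 4 h of TBHQ before the 12 h with LPS or PIC. TBHQ cells were lysed at the end of the 4 h. The methods give no hour of lysis for the control, but the study sets TBHQ alone apart as the 4 h group and counts the control among the 12 h groups. In TBHQ against control, treatment and harvest time therefore cannot be told apart. TBHQ was dissolved in DMSO, and the methods name no DMSO control for the sequenced cells. TBHQ and its solvent therefore cannot be told apart in any comparison of cells with and without TBHQ. Counts on genes totalled 14423390 to 18851626 per library.

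Toll-like receptors are membrane proteins that recognise conserved microbial molecules and signal through adaptors with a TIR domain to NF-κB and interferon regulatory factors. In macrophages, TLR1, TLR2, TLR4 and TLR6 act at the cell surface on lipoproteins and lipopolysaccharide, whereas TLR3, TLR7, TLR8, TLR9 and TLR13 read nucleic acids inside endosomes. LPS acts through TLR4 with CD14, and poly(I:C) is the classical ligand of TLR3.

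The cells were first checked against their label. Of 9 macrophage markers, 8 were above 3 counts in every library, led by the lysozyme gene *Lyz2*, and *Mertk* had 0 to 5 counts. The summed macrophage signal was 4401 to 5694 FPKM (fragments scaled by gene length and library depth). Markers of T cells, B cells, fibroblasts and epithelial cells summed to at most 0.0404, 0.338, 0.122 and 0.0279 FPKM, and their most abundant genes were *Cd3d*, *Cd79a*, *Dcn* and *Epcam*. *Cd3e*, *Col1a2*, *Krt8*, *Krt18* and *Cdh1* were at 0 counts throughout. The dendritic cell list, led by *Zbtb46*, reached 0.370 FPKM, with *Siglech* at 0. On the neutrophil list *Ly6g* and *S100a9* were at 0, and *S100a8* went from 0.777 ± 0.172 FPKM in the control to 3.26 ± 0.403 with LPS and 5.59 ± 0.483 with PIC (mean ± SD, n = 3). Of the macrophage markers above the floor, 4 spread more than 2-fold over the libraries, and *Cd68*, *Spi1*, *Lyz2* and *Ptprc* by at most 1.67-fold. *Adgre1* (6.13-fold) and *Itgam* (3.52-fold) were at 18.4 ± 1.08 and 10.6 ± 0.198 FPKM in the control, 50.6 ± 0.570 and 20.7 ± 2.12 with LPS, 67.6 ± 2.89 and 25.5 ± 1.297 with PIC and 12.8 ± 1.08 and 7.94 ± 0.508 with TBHQ. *Fcgr1* (3.42-fold) and *Csf1r* (2.15-fold) were at 13.98 ± 0.206 and 154 ± 4.58 FPKM in the control, 13.9 ± 0.968 and 91.7 ± 3.35 with LPS, 9.64 ± 0.891 and 86.1 ± 5.18 with PIC and 5.77 ± 0.482 and 174 ± 0.977 with TBHQ. The spreads are over all 18 libraries and so include LPS + TBHQ and PIC + TBHQ, whose means are not given here. The lowest *Fcgr1* library was at 4.38 FPKM, below the mean of each condition named. The part of these markers in the results was not tested.

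Genes known to respond to the treatments were checked next. All 6 genes of an LPS and PIC response list were called higher with each stimulus, against 24.0% of all tested genes with LPS and 28.6% with PIC, and all 6 were called lower with TBHQ before LPS or PIC, against 12.2% and 15.5%. TBHQ alone gave 2 higher and 3 lower, against 14.2% and 14.8%. Set against the control, LPS + TBHQ gave 3 higher and 3 lower, against 21.2% and 22.5%. PIC + TBHQ gave 6 higher than the control, against 26.4%. *Tnf*, which encodes tumor necrosis factor, rose by a log2 fold change (log2FC) of 2.04 with LPS and 3.14 with PIC, and the interferon-induced *Rsad2* by 1.94 and 3.85. *Il1b*, the interleukin gene, held 1 to 2 counts per control library, against 1079 to 1444 after LPS. All 5 genes of a TBHQ response list rose with TBHQ alone, against 14.2% of all genes, among them *Gclm* of glutathione synthesis (1.82) and *Hmox1*, heme oxygenase (2.09). With LPS the same 5 rose, and with PIC 4 rose and *Nqo1* was not called (adjusted p = 0.132). TBHQ before LPS raised 4, against 11.7% of all genes, and TBHQ before PIC the same 4, against 15.8%, while *Hmox1* was lower in both (-0.30 and -0.16). These and all later tests are edgeR's quasi-likelihood test in 1 fit over the 18 libraries, with p-values adjusted by the Benjamini-Hochberg method over the 13691 genes tested and calls made at an adjusted p below 0.05. All 10 receptor genes passed the filter on low counts, *Tlr8* through its control and TBHQ libraries, so that a call of a stimulus against the control could point lower only. Each log2FC is followed by its standard error, computed from log2 CPM (counts scaled to library depth) of the replicates with a prior count of 2, with n = 3 in each condition. At low counts this error is too small, so counting intervals are given in its place for *Tlr8* and beside it for *Tlr9*.

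Per transcript length, *Cd14* stood far above the receptors. In the control it averaged 809.7 ± 30.99 FPKM (mean ± SD, n = 3). *Tlr2* followed at 42.9 ± 1.26 FPKM, *Tlr7* at 28.1 ± 0.722, *Tlr4* at 17.4 ± 1.62 and *Tlr13* at 17.1 ± 0.448. *Tlr4* and *Tlr13* overlapped, and each other neighbour in this order was separated in every control library. The lower ranks were *Tlr1* at 6.62 ± 0.351 FPKM, *Tlr6* at 4.92 ± 0.402, *Tlr3* at 3.05 ± 0.270, *Tlr9* at 1.85 ± 0.118 and *Tlr8* at 0.580 ± 0.0315. *Cd14* and *Tlr2* kept the first ranks and *Tlr3*, *Tlr9* and *Tlr8* the last ranks in all 6 conditions, and the changes of order lay between them. *Tlr13* ranked above *Tlr7* in LPS + TBHQ without overlap and in PIC + TBHQ with overlap. *Tlr13* ranked above *Tlr4* in every condition but the control, without overlap in PIC (17.4 ± 0.604 against 14.5 ± 1.23 FPKM), TBHQ (19.4 ± 0.456 against 14.8 ± 0.429), LPS + TBHQ (23.4 ± 0.175 against 17.4 ± 1.13) and PIC + TBHQ (24.1 ± 1.35 against 16.6 ± 0.277) and with overlap in LPS. *Tlr6* ranked above *Tlr1* in PIC + TBHQ, and the pair overlapped in LPS and in LPS + TBHQ. *Tlr5*, *Tlr11* and *Tlr12*, the receptors for flagellin and profilin, had 0 counts in all 18 libraries. A count of 0 allows up to 3 counts, or 0.159 to 0.208 CPM depending on the library, a limit that covers counting error only. In bulk RNA, fewer cells with a transcript and less of it per cell cannot be told apart.

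**Figure D1:**
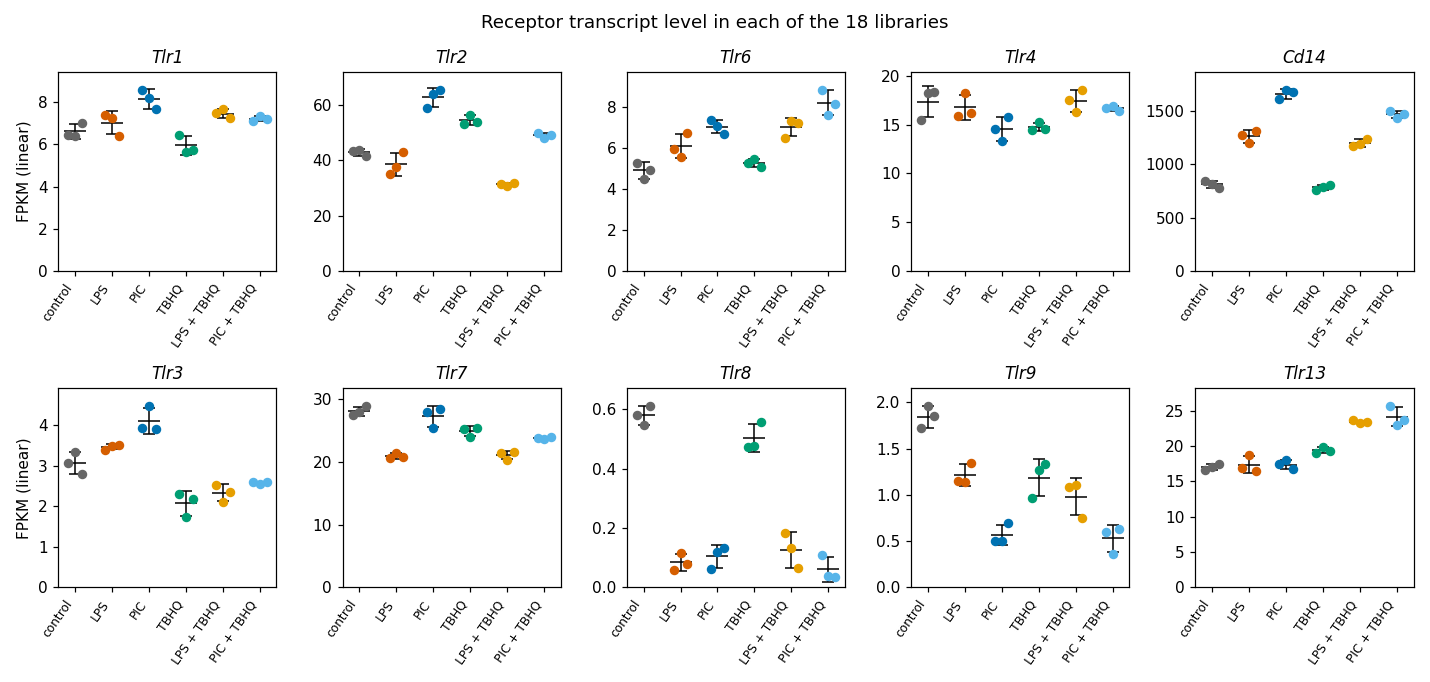
FPKM of each receptor gene (vertical axes, linear, starting at 0) in the 6 conditions (horizontal axes). Points are the 18 libraries, dashes with bars are means ± SD of 3 libraries. *Cd14* was higher in every LPS and PIC library than in any control library, *Tlr8* was lower, and *Tlr13* was highest in the libraries that had TBHQ before a stimulus.

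TLR2 forms heterodimers with TLR1 for triacylated and with TLR6 for diacylated lipopeptides. *Tlr2* (ENSMUSG00000027995, chromosome 3, 83743579 to 83749074, minus strand, in the coordinates of the authors' files) measured 43.4, 43.9 and 41.5 FPKM in the control libraries. With LPS it measured 35.1, 37.4 and 43.2 FPKM, and with PIC 58.8, 64.1 and 65.4 FPKM. The PIC libraries were all above the control and LPS libraries, while LPS and control overlapped. With TBHQ alone *Tlr2* measured 53.2, 56.5 and 54.02 FPKM, above every control library. With LPS + TBHQ it measured 31.5, 30.7 and 31.8 FPKM and under PIC + TBHQ 49.96, 48.2 and 49.2 FPKM, in each case below every library of that stimulus alone. LPS + TBHQ held the lowest *Tlr2* values of the study.

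*Tlr2* rose with PIC by a log2FC of 0.53 ± 0.052 (adjusted p = 2.08e-11), or 1.45-fold, and PIC exceeded LPS by 0.69 ± 0.10 (adjusted p = 3.04e-13). With LPS it fell by a smaller amount, -0.16 ± 0.092 (adjusted p = 0.00989). That call was lost without LPS replicate 1 (log2FC -0.093, adjusted p = 0.157) or without LPS replicate 2 (log2FC -0.13, adjusted p = 0.0693). TBHQ alone raised *Tlr2* by 0.34 ± 0.037 (adjusted p = 1.65e-06), but TBHQ before a stimulus lowered it. The change was -0.30 ± 0.090 (adjusted p = 3.47e-05) against LPS and -0.34 ± 0.048 (adjusted p = 1.18e-06) against PIC. The test of the difference between the TBHQ change with a stimulus and without one gave -0.64 ± 0.10 (adjusted p = 2.37e-08) for LPS and -0.69 ± 0.061 (adjusted p = 2.23e-09) for PIC. These tests were chosen after the values had been seen, and the TBHQ cells of their unstimulated arm were harvested earlier. After TBHQ, *Tlr2* was below the control with LPS (-0.46 ± 0.030, adjusted p = 3.02e-09) and above it with PIC (0.19 ± 0.030, adjusted p = 0.00195), the latter not called with scaling to total library size (log2FC 0.041, adjusted p = 0.509).

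*Tlr1* (ENSMUSG00000044827, chromosome 5, 65082022 to 65090906, minus strand) measured 6.42, 6.40 and 7.02 FPKM in the control, 7.40, 7.26 and 6.39 with LPS and 8.58, 8.19 and 7.68 with PIC. PIC lay above the other 2 conditions in every library. It measured 6.47, 5.65 and 5.75 FPKM with TBHQ, 7.47, 7.68 and 7.24 with LPS + TBHQ and, for PIC + TBHQ, 7.10, 7.34 and 7.23. *Tlr1* rose with PIC (0.28 ± 0.064, adjusted p = 0.00207), a call that scaling to total library size ended (log2FC 0.063, adjusted p = 0.494). Against LPS, PIC was higher by 0.20 ± 0.081 (adjusted p = 0.0481), just inside the threshold. It was not called by DESeq2 (adjusted p = 0.0718) or by edgeR on the conditions compared only (0.0850), without a filter on low counts (0.114) or with scaling to total library size (0.490), and leaving out any library but LPS replicate 1, PIC replicate 3 or TBHQ replicate 1 ended the call, with an adjusted p from 0.0502 without LPS replicate 2 to 0.243 without LPS replicate 3. *Tlr1* was not called with LPS (0.077 ± 0.078, adjusted p = 0.447) or TBHQ (-0.15 ± 0.075, adjusted p = 0.148).

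*Tlr6* (ENSMUSG00000051498, chromosome 5, 65109374 to 65117440, minus strand) was higher with both stimuli. It measured 5.30, 4.50 and 4.95 FPKM in the control, 5.97, 5.59 and 6.75 with LPS and 7.35, 7.11 and 6.70 with PIC, and no stimulated library fell into the control range. With TBHQ it measured 5.26, 5.48 and 5.08 FPKM, with LPS + TBHQ 6.51, 7.33 and 7.22 and under PIC + TBHQ 8.84, 7.63 and 8.18. The PIC + TBHQ libraries were the highest of the study for this gene. *Tlr6* rose by 0.31 ± 0.10 (adjusted p = 0.00353) with LPS and by 0.50 ± 0.079 (adjusted p = 3.79e-06) with PIC. TBHQ before PIC added 0.23 ± 0.074 (adjusted p = 0.0237), which was not called by DESeq2 (adjusted p = 0.0643) or limma on log2(FPKM + 1) (adjusted p = 0.0575). The same call was lost without PIC replicate 2 (adjusted p = 0.0634), without PIC replicate 3 (0.138), without PIC + TBHQ replicate 1 (0.158) and without PIC + TBHQ replicate 3 (0.0572). TBHQ before LPS moved *Tlr6* by 0.20 ± 0.10 (adjusted p = 0.0748), which was called with scaling to total library size (adjusted p = 0.0392), without LPS replicate 3 (0.0216) or without LPS + TBHQ replicate 1 (0.0429). Against the control, PIC + TBHQ reached 0.74 ± 0.092 (adjusted p = 1.82e-09) and LPS + TBHQ 0.51 ± 0.087 (adjusted p = 4.80e-06). PIC against LPS gave 0.20 ± 0.089 (adjusted p = 0.0780), called without LPS replicate 3 (adjusted p = 0.0231).

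*Tlr1* and *Tlr6* are neighbours on chromosome 5, on the same strand with 18467 bases between them, and their transcripts share sequence. Of the 50-base words of their annotated transcripts (GENCODE M21), 454 occur in both genes, which is 13.6% of those of *Tlr1* and 12.3% of those of *Tlr6*. Counting any other gene, *Tlr1* shares 512 words (15.4%) and *Tlr6* 456 (12.3%). Fragments from these stretches may be lost or assigned to another gene. The level of *Tlr1* and of *Tlr6* is thus less certain than that of *Tlr2*, which shares no such word with another gene.

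CD14 is a membrane-anchored and soluble protein that binds LPS and passes it to TLR4 and its partner MD-2. *Cd14* (ENSMUSG00000051439) measured 840.5, 810.2 and 778 FPKM in the control libraries. With LPS it measured 1276, 1194 and 1309 FPKM and with PIC 1606, 1692 and 1676 FPKM. The 3 conditions did not overlap, and PIC was the highest. With TBHQ it measured 758, 785 and 804 FPKM, which overlapped with the control. With LPS + TBHQ it measured 1167, 1189 and 1235 FPKM and under PIC + TBHQ 1497, 1427 and 1468 FPKM, the latter below every PIC library. *Cd14* rose by a log2FC of 0.63 ± 0.050 (adjusted p = 9.22e-18) with LPS and 1.02 ± 0.040 (adjusted p = 3.50e-24) with PIC, or 1.55-fold and 2.02-fold, and PIC exceeded LPS by 0.39 ± 0.044 (adjusted p = 2.39e-11). TBHQ before PIC lowered it, at a log2FC of -0.17 ± 0.031 (adjusted p = 1.57e-04). TBHQ before LPS gave -0.075 ± 0.045 (adjusted p = 0.105), called without LPS replicate 2 (log2FC -0.11, adjusted p = 0.0183), and TBHQ alone gave -0.052 ± 0.040 (adjusted p = 0.267). *Cd14* stayed above the control after TBHQ, by 0.55 ± 0.041 (adjusted p = 4.99e-16) with LPS and 0.85 ± 0.039 (adjusted p = 1.20e-21) with PIC.

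*Tlr4* (ENSMUSG00000039005, chromosome 4, 66745821 to 66848521, plus strand), the signalling receptor for LPS, varied little. It measured 15.5, 18.2 and 18.4 FPKM in the control, 15.9, 18.2 and 16.2 with LPS and 14.6, 13.3 and 15.8 with PIC. Control replicate 1 was the low control library and lay within the PIC range, and LPS overlapped with the control. With TBHQ *Tlr4* measured 14.5, 15.2 and 14.6 FPKM, with LPS + TBHQ 17.5, 16.3 and 18.5 and under PIC + TBHQ 16.6, 16.9 and 16.4. LPS did not change its own receptor's transcript (-0.057 ± 0.10, adjusted p = 0.466) past the threshold, although scaling to total library size called it lower (log2FC -0.15, adjusted p = 0.0476). *Tlr4* fell with PIC (-0.27 ± 0.11, adjusted p = 2.77e-04) and with TBHQ alone (-0.24 ± 0.083, adjusted p = 0.00274). TBHQ before PIC raised it by 0.20 ± 0.071 (adjusted p = 0.0112), a call lost with limma on log2(FPKM + 1) (adjusted p = 0.0724) and without PIC replicate 2 (log2FC 0.13, adjusted p = 0.159). PIC lay below LPS, at a log2FC of -0.21 ± 0.095 (adjusted p = 0.00907), which was lost with limma (0.0664), without LPS replicate 2 (0.117) and without PIC replicate 2 (0.104). Neither stimulus left *Tlr4* different from the control after TBHQ by this test (-0.0022 ± 0.10, adjusted p = 0.982, and -0.068 ± 0.080, adjusted p = 0.369), but scaling to total library size called PIC + TBHQ lower (log2FC -0.22, adjusted p = 0.00290). A non-coding gene on the same strand, ENSMUSG00000121059, overlaps *Tlr4* and held 84 to 178 counts, so that reads of the pair may be divided.

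The ratio of *Cd14* to *Tlr4* in FPKM, which no library scaling can move, was 47.1 ± 6.33 in the control (mean ± SD, n = 3). It was 75.5 ± 8.70 with LPS and 115 ± 11.1 with PIC. With LPS + TBHQ it was 68.7 ± 3.68, with PIC + TBHQ 88.00 ± 3.18 and with TBHQ 53.04 ± 1.94. Stimulated cells thus held more co-receptor transcript per receptor transcript, and PIC, which is not a TLR4 ligand, gave the highest ratio.

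TLR3 recognises double-stranded RNA, the kind of molecule that poly(I:C) mimics. *Tlr3* (ENSMUSG00000031639, chromosome 8, 45848702 to 45864117, minus strand) measured 3.05, 3.32 and 2.78 FPKM in the control, 3.39, 3.49 and 3.52 with LPS and 3.94, 4.46 and 3.90 with PIC. The stimulated libraries were all above the control range. With TBHQ *Tlr3* measured 2.30, 1.73 and 2.17 FPKM, with LPS + TBHQ 2.53, 2.12 and 2.35 and under PIC + TBHQ 2.59, 2.54 and 2.60. Each TBHQ condition was below its partner without TBHQ in every library. *Tlr3* fell, at a log2FC of -0.56 ± 0.14 (adjusted p = 5.96e-05) with TBHQ alone, -0.57 ± 0.076 (adjusted p = 4.00e-05) with TBHQ before LPS and -0.66 ± 0.064 (adjusted p = 2.35e-06) with TBHQ before PIC, or -32.3%, -32.8% and -36.6%. The differences between these changes were -0.011 ± 0.16 (adjusted p = 0.972), -0.095 ± 0.16 (adjusted p = 0.688) and, between PIC and LPS, -0.084 ± 0.10 (adjusted p = 0.856), and none was called. PIC raised *Tlr3* by 0.41 ± 0.10 (adjusted p = 4.52e-04), which scaling to total library size left uncalled (log2FC 0.19, adjusted p = 0.0835), and LPS gave 0.18 ± 0.076 (adjusted p = 0.145). After TBHQ the transcript was below the control with LPS (-0.40 ± 0.10, adjusted p = 0.00159).

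With PIC + TBHQ, *Tlr3* was also lower than in the control (-0.25 ± 0.075, adjusted p = 0.0383), but this was not called by DESeq2 (adjusted p = 0.0909), by limma on log2(FPKM + 1) (0.0686) or without a filter on low counts (0.0705). The call was also lost without control replicate 1 (0.0707), control replicate 2 (0.188), and PIC + TBHQ replicates 1 (0.0718), 2 (0.0829) or 3 (0.0676). A non-coding gene on the opposite strand of *Tlr3*, *Gm45542*, had 0 counts in all libraries.

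TLR7 responds to single-stranded RNA and its breakdown products. *Tlr7* and *Tlr8* lie on the X chromosome with 40599 bases between them. *Tlr7* (ENSMUSG00000044583, chromosome X, 166087925 to 166113554, minus strand) measured 27.4, 27.97 and 28.8 FPKM in the control, 20.5, 21.4 and 20.7 with LPS and 27.9, 25.4 and 28.4 with PIC. Every LPS library was below every control library, while PIC overlapped with the control. With TBHQ it measured 25.1, 23.9 and 25.4 FPKM, with LPS + TBHQ 21.3, 20.3 and 21.5 and under PIC + TBHQ 23.7, 23.6 and 24.01. *Tlr7* fell, at a log2FC of -0.43 ± 0.028 (adjusted p = 3.51e-10) with LPS and was higher with PIC than with LPS by 0.37 ± 0.054 (adjusted p = 4.41e-08). With PIC against the control it gave -0.060 ± 0.055 (adjusted p = 0.252), but scaling to total library size called it lower (log2FC -0.28, adjusted p = 1.34e-06). TBHQ lowered it alone (-0.18 ± 0.033, adjusted p = 0.00191) and before PIC (-0.19 ± 0.051, adjusted p = 0.00139), and before LPS it gave 0.0094 ± 0.033 (adjusted p = 0.919). The difference of the TBHQ change between PIC and LPS was -0.20 ± 0.061 (adjusted p = 0.120). It passed without PIC replicate 2 (log2FC -0.26, adjusted p = 0.0216). Against the control, LPS + TBHQ gave -0.43 ± 0.034 (adjusted p = 5.50e-10) and PIC + TBHQ -0.25 ± 0.022 (adjusted p = 1.45e-05).

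*Tlr8* (ENSMUSG00000040522, chromosome X, 166025692 to 166047325, minus strand) was the rarest of the 10 genes and had their largest fold change between either stimulus and the control. Its counts were 32, 32 and 37 in the control libraries, 3, 6 and 4 with LPS and 3, 6 and 8 with PIC. With TBHQ they were 29, 28 and 34, with LPS + TBHQ 11, 8 and 4 and under PIC + TBHQ 6, 2 and 2. Control and TBHQ libraries were high, and every library with a stimulus was low, some at or under the floor of 3 counts. In summed counts scaled to depth the control was 6.90 (3.86 to 13.4) times the LPS level and 5.51 (3.28 to 9.83) times the PIC level, with 95% intervals that cover counting error only. It was 4.63 (2.92 to 7.64) times the LPS + TBHQ level and 9.53 (4.97 to 20.5) times the PIC + TBHQ level. The filter on low counts kept *Tlr8* for its high libraries, and without a filter edgeR also called it lower (log2FC -2.75, adjusted p = 8.45e-09, with LPS and -2.44, adjusted p = 6.59e-08, with PIC). TBHQ alone was 0.866 (0.645 to 1.16) times the control, LPS + TBHQ 1.49 (0.723 to 3.20) times LPS and PIC + TBHQ 0.578 (0.237 to 1.34) times PIC, and none of these was called (adjusted p = 0.665, 0.502 and 0.353). An effect of TBHQ on *Tlr8* was not detectable at this depth. PIC was 1.25 (0.573 to 2.80) times LPS (adjusted p = 0.733).

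TLR9 reads unmethylated CpG DNA. *Tlr9* (ENSMUSG00000045322, chromosome 9, 106099797 to 106104082, plus strand) had 92, 111 and 109 counts in the control, 57, 57 and 67 with LPS and 24, 24 and 41 with PIC. These were 1.72, 1.96 and 1.85 FPKM, 1.15, 1.14 and 1.35 FPKM and 0.505, 0.497 and 0.696 FPKM. The 3 conditions formed steps without overlap, with the control highest and PIC lowest. With TBHQ it measured 0.961, 1.27 and 1.33 FPKM, with LPS + TBHQ 1.08, 1.11 and 0.754 and under PIC + TBHQ 0.599, 0.364 and 0.627. *Tlr9* fell, at a log2FC of -0.61 ± 0.091 (adjusted p = 0.00627) with LPS and -1.70 ± 0.16 (adjusted p = 8.14e-09) with PIC, and PIC lay below LPS, at a log2FC of -1.09 ± 0.17 (adjusted p = 2.38e-04). By summed counts LPS was 0.653 (0.541 to 0.787) and PIC 0.308 (0.240 to 0.391) times the control, and PIC 0.471 (0.361 to 0.610) times LPS, with 95% counting intervals. By the same measure TBHQ alone was 0.640 (0.535 to 0.766), LPS + TBHQ 0.526 (0.434 to 0.635) and PIC + TBHQ 0.289 (0.224 to 0.368) times the control. TBHQ alone lowered it, at a log2FC of -0.64 ± 0.15 (adjusted p = 0.00683), a call lost without TBHQ replicate 1 (log2FC -0.51, adjusted p = 0.0584). TBHQ before LPS or PIC gave no call (-0.31 ± 0.19, adjusted p = 0.290, and -0.088 ± 0.28, adjusted p = 0.831). By summed counts LPS + TBHQ was 0.804 (0.649 to 0.996) times LPS, an interval that leaves out 1 but covers no spread between replicates, and PIC + TBHQ 0.939 (0.689 to 1.28) times PIC. Against the control *Tlr9* was lower, at a log2FC of -0.92 ± 0.18 (adjusted p = 9.98e-05) with LPS + TBHQ and -1.79 ± 0.24 (adjusted p = 4.20e-09) with PIC + TBHQ.

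TLR13, which mice have and humans lack, recognises a conserved stretch of bacterial 23S ribosomal RNA. *Tlr13* (ENSMUSG00000033777, chromosome X, 105186810 to 105204099, plus strand) measured 16.6, 17.04 and 17.5 FPKM in the control, 16.8, 18.8 and 16.5 with LPS and 17.4, 17.96 and 16.8 with PIC. The 3 conditions overlapped. With TBHQ it measured 18.999, 19.9 and 19.4 FPKM, with LPS + TBHQ 23.6, 23.3 and 23.3 and under PIC + TBHQ 25.6, 23.04 and 23.7. Every library with TBHQ and a stimulus was above every other library of the study. *Tlr13* gave 0.016 ± 0.063 (adjusted p = 0.826) with LPS and 0.0079 ± 0.037 (adjusted p = 0.908) with PIC against the control, a direction that scaling to total library size turned for both (log2FC -0.072 and -0.21, adjusted p = 0.247 and 4.87e-04). PIC and LPS differed by -0.0080 ± 0.067 (adjusted p = 0.932), called with that scaling only (log2FC -0.14, adjusted p = 0.0317). TBHQ raised *Tlr13* by 0.18 ± 0.029 (adjusted p = 0.00454) alone, 0.43 ± 0.060 (adjusted p = 1.28e-08) before LPS and 0.49 ± 0.056 (adjusted p = 7.91e-10) before PIC, or 13.6%, 34.8% and 40.01%. With a stimulus the rise was larger than without one, by 0.25 ± 0.067 (adjusted p = 0.0107) for LPS and 0.30 ± 0.063 (adjusted p = 0.00131) for PIC. As for *Tlr2*, these tests of the difference were chosen after the values had been seen. The unstimulated TBHQ cells were harvested earlier, so stimulus and time after TBHQ cannot be told apart. Against the control *Tlr13* reached 0.45 ± 0.022 (adjusted p = 1.55e-09) with LPS + TBHQ and 0.49 ± 0.051 (adjusted p = 1.05e-10) with PIC + TBHQ.

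**Figure D2:**
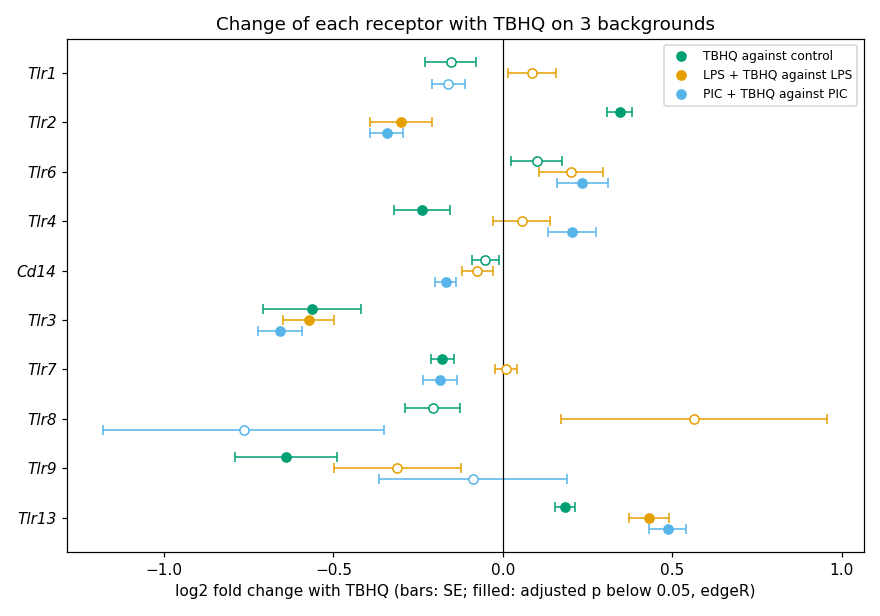
Change of each receptor gene with TBHQ as log2FC (horizontal axis) for TBHQ against control, LPS + TBHQ against LPS and PIC + TBHQ against PIC. Bars are standard errors from 3 libraries in each condition, which are too small for *Tlr8* at its low counts, and filled points have an adjusted p below 0.05. *Tlr3* lies left of 0 and *Tlr13* right of 0 on all 3 backgrounds, and *Tlr2* changes side between TBHQ alone and TBHQ before a stimulus.

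The makeup of the receptor pool shifted with these changes. As a share of the summed FPKM of the 9 Toll-like receptor genes, a measure that no library scaling can move, *Tlr2* made up 35.1% ± 1.32 of the control pool (mean ± SD, n = 3). Its share was 34.6% ± 2.69 with LPS, 44.2% ± 1.71 with PIC, 42.4% ± 0.857 with TBHQ, 28.2% ± 0.0185 with LPS + TBHQ and 37.1% ± 0.163 with PIC + TBHQ. *Tlr13* made up 13.9% ± 0.230 of the pool in the control, 15.6% ± 1.11 with LPS, 12.3% ± 0.651 with PIC, 15.1% ± 0.177 with TBHQ, 21.1% ± 0.363 with LPS + TBHQ and 18.2% ± 0.645 with PIC + TBHQ. The *Tlr7* share was 22.9% ± 0.393 in the control and lower in every other condition, at 18.7% ± 0.629 with LPS, 19.2% ± 1.08 with PIC, 19.3% ± 0.816 with TBHQ, 18.9% ± 0.265 with LPS + TBHQ and 17.98% ± 0.386 with PIC + TBHQ. The 5 endosomal receptors together took 41.3% ± 0.408 in the control and 43.1% ± 0.529 with LPS + TBHQ, the 1 condition above it, against 38.6% ± 1.61 with LPS, 34.8% ± 0.877 with PIC, 37.4% ± 0.910 with TBHQ and 38.6% ± 0.353 with PIC + TBHQ. The pool itself summed to 122 ± 2.09 FPKM in the control, 111 ± 4.44 with LPS, 142 ± 3.23 with PIC, 129 ± 1.51 with TBHQ, 111 ± 2.03 with LPS + TBHQ and 132 ± 2.74 with PIC + TBHQ. Unlike the shares, this sum moves with library scaling. The deposited FPKM hold a constant per library, 0.951, 0.946 and 0.943 in the control and 1.11, 1.12 and 1.11 with PIC. The higher sum with PIC rests on that constant.

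Counted over the 10 genes, LPS raised 2 (*Cd14* and *Tlr6*) and lowered 4 (*Tlr2*, *Tlr7*, *Tlr8* and *Tlr9*) against the control, where 24.0% of all tested genes were called higher and 24.1% lower. A |log2FC| above 1 was reached by *Tlr8* alone, against 7.46% of all genes. PIC raised 5 (*Cd14*, *Tlr1*, *Tlr2*, *Tlr3* and *Tlr6*) and lowered 3 (*Tlr4*, *Tlr8* and *Tlr9*), against 28.6% and 30.1% of all genes. *Cd14*, *Tlr8* and *Tlr9* passed a |log2FC| of 1, which 13.2% of all genes did. *Tlr8* passed the filter through its control and TBHQ libraries, so its call with a stimulus could point lower only. Among genes with a mean of at least 50 counts, which leaves out *Tlr8*, LPS lowered 3 and PIC 2. With scaling to total library size PIC raised 3 and lowered 5, and the median of all genes moved with that scaling by -0.22 on the log2 scale, and by -0.13 for PIC against LPS and -0.15 for PIC + TBHQ against the control. The members' median log2FC was -0.021 with LPS and 0.14 with PIC, beside -0.0040 and -0.015 over all tested genes. PIC against LPS gave 4 genes higher (*Cd14*, *Tlr1*, *Tlr2* and *Tlr7*) and 2 lower (*Tlr4* and *Tlr9*), against 14.9% and 12.8% of all genes. *Tlr9* passed a |log2FC| of 1, against 1.84% of all genes.

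TBHQ alone raised 2 of the 10 genes (*Tlr2* and *Tlr13*) and lowered 4 (*Tlr3*, *Tlr4*, *Tlr7* and *Tlr9*), against 14.2% and 14.8% of all tested genes. No |log2FC| of the 10 was above 1 in edgeR in any of the 3 TBHQ comparisons, called or not, and 1.99% of all genes were called past 1 with TBHQ alone. TBHQ before LPS raised 1 (*Tlr13*) and lowered 2 (*Tlr2* and *Tlr3*), against 11.7% and 12.2%, and 1.86% of all genes were called past a |log2FC| of 1. TBHQ before PIC raised 3 (*Tlr4*, *Tlr6* and *Tlr13*) and lowered 4 (*Cd14*, *Tlr2*, *Tlr3* and *Tlr7*), against 15.8% and 15.5%, and 2.38% of all genes were called past a |log2FC| of 1. *Tlr2*, *Tlr3* and *Tlr13* were the genes called in all 3 TBHQ comparisons, against 8.98% of all tested genes.

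The difference of the TBHQ change between PIC and LPS was called for 0 of the 10 genes in either direction by edgeR, DESeq2 and limma, against 0.825% of all tested genes higher, 1.01% lower and 0.139% past a |log2FC| of 1. At an unadjusted p below 0.05, 2 of the 10 passed in edgeR, *Tlr1* and *Tlr7*. Between LPS and no stimulus the TBHQ change differed for 3 genes upward (*Tlr4*, *Tlr7* and *Tlr13*) and 1 downward (*Tlr2*), against 9.14% and 9.33% of all genes. Leaving out 1 library ended the call of *Tlr4* in 4 of 18 fits (adjusted p up to 0.0586 without LPS + TBHQ replicate 3) and that of *Tlr7* in 7 (up to 0.0976 without TBHQ replicate 2). Between PIC and no stimulus it differed for 2 upward (*Tlr4* and *Tlr13*) and 1 downward (*Tlr2*), against 13.3% and 12.5%. At least 1 of these 2 differences was called for 30.0% of all tested genes and both for 14.2%. *Cd14* was the 2nd gene downward with DESeq2 and in edgeR with RLE size factors, without a filter, with a mean of at least 50 counts or on the conditions compared only (adjusted p = 0.0248 to 0.0369). It was also called without control replicate 1 (0.0268), LPS replicate 2 (0.0191), LPS replicate 3 (0.0238), PIC replicate 1 (0.0193), TBHQ replicate 1 (0.0393) or PIC + TBHQ replicate 1 (0.0465). Set against the control directly, LPS + TBHQ left 3 genes higher (*Cd14*, *Tlr6* and *Tlr13*) and 5 lower (*Tlr2*, *Tlr3*, *Tlr7*, *Tlr8* and *Tlr9*), against 21.2% and 22.5% of all genes. *Tlr8* passed a |log2FC| of 1, which 5.27% of all genes did. PIC + TBHQ left 4 higher (*Cd14*, *Tlr2*, *Tlr6* and *Tlr13*) and 4 lower (*Tlr3*, *Tlr7*, *Tlr8* and *Tlr9*), against 26.4% and 26.0%. *Tlr8* and *Tlr9* passed a |log2FC| of 1, which 9.26% of all genes did. The filter kept *Tlr8* for its high libraries, so these calls of it could also point lower only. Without *Tlr8*, at a mean of at least 50 counts, 4 were lower with LPS + TBHQ and 3 with PIC + TBHQ. The comparisons of this paragraph and the previous ones share libraries and are not independent of each other. *Tlr1* after TBHQ gave 0.16 ± 0.049 (adjusted p = 0.0847) with LPS against the control, which was called higher among genes with a mean of at least 50 counts (log2FC 0.18, adjusted p = 0.0480). With PIC it gave 0.12 ± 0.044 (adjusted p = 0.204), a direction turned by scaling to total library size (log2FC -0.029).

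The genes around the receptors were followed with lists of 47 co-receptors, chaperones, proteases, adaptors, kinases, ubiquitin ligases, inhibitors and further Toll-like receptors, of which 41 were tested. *Tlr5*, *Tlr11* and *Tlr12*, *Lbp*, *Tril* and *Sigirr* did not pass the filter. Against the control LPS raised 15 and lowered 9, beside 24.0% and 24.1% of all tested genes, with a median log2FC of 0.028, smaller than the shift of -0.088 that scaling to total library size gave all genes. PIC raised 21 and lowered 13, beside 28.6% and 30.1%, with a median of 0.11, again smaller than that shift (-0.22). The inhibitor *Tnfaip3*, which encodes the ubiquitin-editing enzyme A20, led both comparisons (1.92 ± 0.038 with LPS and 3.24 ± 0.026 with PIC). *Irak3*, the kinase-dead inhibitor of the receptor complex, rose by 1.68 and 2.21, and the kinase gene *Ikbke* by 1.56 and 2.28. *Cd36*, a scavenger receptor that assists TLR2, rose by 1.71 and 1.78, and the kinase gene *Irak2* by 0.97 and 1.45. Among these genes with a mean of at least 50 counts, *Lgmn*, an endosomal protease, fell, at a log2FC of -0.99 with LPS. The ubiquitin ligase gene *Peli1* rose by 1.94 with PIC. PIC against LPS gave 17 higher and 6 lower, beside 14.9% and 12.8% of all genes, at a median of 0.12, about the size of the shift for this comparison (-0.13). *Peli1* (1.68), *Tnfaip3* (1.33), *Ikbke* (0.72), *Irak3* (0.53) and *Irak2* (0.48) were higher with PIC, and *Ticam2*, an adaptor of TLR4, was lower (-0.42).

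Of the 41 genes tested, TBHQ alone raised 9 and lowered 11, close to even, beside 14.2% and 14.8% of all genes, at a median log2FC of -0.015. *Ticam2* (-0.60) and the receptor chaperone gene *Hsp90b1* (-0.36) fell, and *Cd36* (0.43), *Traf3* (0.42), *Pik3ap1* (0.34) and *Ikbkg* (0.31) rose. TBHQ before LPS raised 3 and lowered 17, beside 11.7% and 12.2% of all genes, at a median of -0.070 beside 0.0023 over all tested genes. *Tnfaip3* (-0.53), *Ly86* (-0.42), the protease gene *Ctss* (-0.40), *Irak2* (-0.39), *Pik3ap1* (-0.35) and *Ly96*, which encodes MD-2 (-0.34), fell most. TBHQ before PIC raised 4 and lowered 23, beside 15.8% and 15.5% of all genes, at a median of -0.19 beside 0.0089. *Tnfaip3* (-0.83), *Peli1* (-0.59), *Irak2* (-0.43), *Ctss* (-0.38), *Ticam1*, the adaptor of TLR3 (-0.37), and *Ikbkg* (-0.36) fell most. The difference between PIC and LPS, called lower for 1.01% and higher for 0.825% of all genes, was called for *Peli1* (-0.44), *Irak3* (-0.39) and *Tnfaip3* (-0.30), each lower. Against the control, LPS + TBHQ gave 12 higher and 13 lower, beside 21.2% and 22.5% of all genes, with *Ctsl*, an endosomal protease gene, among the higher (0.80). PIC + TBHQ gave 17 higher and 12 lower, beside 26.4% and 26.0%.

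Genes with the most similar pattern were taken by Pearson's r of log2 CPM over the 18 libraries among genes with a mean of at least 50 counts, which left out *Tlr8*. The libraries share the 6 conditions, so r is given as a description. *Cd14* was closest to *Anxa5* (r = 0.993), *Anxa7* (0.992) and *Cndp2* (0.991). Genes close to *Tlr3* were *Ms4a6c* (r = 0.950) and *Ccdc58* (0.949). For *Tlr6* the closest genes were *Ccdc88b* (r = 0.957), *Dda1* (0.945) and *Ninj1* (0.943), and for *Tlr13* they were *Abcb4* (r = 0.944), *Card19* (0.934) and *Ctnnb1* (0.929). *Tlr7* ran with *mt-Cytb* (r = 0.950), *Osbpl8* (0.903) and *mt-Nd5* (0.895), of which the first and last are mitochondrial genes. *Tlr2* ran with *Eif5a* (r = 0.922), *Etf1* (0.871) and *Gspt1* (0.864). *Tlr9* had *Dclre1a* (r = 0.933), *Cep72* (0.919) and *Atm* (0.912) nearest, *Tlr1* had *Sec61a2* (r = 0.896), *Slamf7* (0.888) and *Card6* (0.888), and *Tlr4* had *Cd200r1* (r = 0.842), *Pgap2* (0.806) and *Prkra* (0.806), the lowest likeness among the 9. Among the receptors themselves r was highest for *Tlr6* with *Cd14* (0.840) and lowest for *Tlr8* with *Cd14* (-0.884), over 18 libraries.

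Start regions from RefSeq (GRCm38.p6, 250 bases before to 50 after a gene start, not the coordinates of the authors' files) were at hand for 7 of the 10 genes in 9 windows, with alternative starts for *Tlr1* and *Tlr6*, and *Tlr4*, *Tlr7* and *Cd14* were not used. They were searched on both strands for the κB site, the interferon response element core (GAAANNGAAA), the GAS element (TTCNNNGAA), the antioxidant response element core (TGACNNNGC) and the PU.1 core (GAGGAA). Of 32851 RefSeq windows of 300 bases, 8.46%, 3.44%, 8.30%, 12.4% and 28.3% held these motifs. *Tlr2* had 3 placements of the κB site, of which a pair overlap by all but 1 base, and *Tlr3* had 1. *Tlr6* had 2 overlapping interferon response element cores in 1 window and 2 GAS elements in the other. *Tlr1* had a PU.1 core in 1 window and a GAS element in the other. *Tlr8* had a GAS element and a PU.1 core, *Tlr9* an antioxidant response element core and 2 PU.1 cores, and *Tlr13* 1 PU.1 core. A match describes letters and not a bound site. The windows of *Tlr2*, *Tlr3* and *Tlr13* are printed because these genes were called in each TBHQ comparison, with the matches in capitals.
Tlr2 (chr3:83841559-83841858, minus strand): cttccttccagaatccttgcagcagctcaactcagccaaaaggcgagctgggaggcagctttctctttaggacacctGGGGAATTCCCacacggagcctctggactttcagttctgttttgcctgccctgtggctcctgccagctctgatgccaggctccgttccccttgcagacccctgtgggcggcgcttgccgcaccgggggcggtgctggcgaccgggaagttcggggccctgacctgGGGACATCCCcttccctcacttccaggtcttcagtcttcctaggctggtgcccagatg
Tlr3 (chr8:45410331-45410630, minus strand): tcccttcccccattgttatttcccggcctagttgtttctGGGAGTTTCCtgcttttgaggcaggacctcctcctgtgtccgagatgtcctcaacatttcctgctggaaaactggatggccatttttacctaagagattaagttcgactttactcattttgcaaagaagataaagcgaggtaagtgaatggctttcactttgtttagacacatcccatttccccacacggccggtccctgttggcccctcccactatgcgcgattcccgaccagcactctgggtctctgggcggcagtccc
Tlr13 (chrX:106143025-106143324, plus strand): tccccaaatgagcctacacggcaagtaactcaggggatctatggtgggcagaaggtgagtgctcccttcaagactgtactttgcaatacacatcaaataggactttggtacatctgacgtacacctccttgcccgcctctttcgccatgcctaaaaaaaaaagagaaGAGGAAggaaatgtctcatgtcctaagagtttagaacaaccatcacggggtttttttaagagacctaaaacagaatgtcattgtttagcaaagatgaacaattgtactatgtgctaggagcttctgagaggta
The capitals of *Tlr2* are κB placements at bases 78 to 88 and 243 to 252 of its window, those of *Tlr3* a κB site at bases 40 to 49, and those of *Tlr13* a PU.1 core at bases 168 to 173, counted from 1 at the 5′ end.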

How the data were processed

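Raw counts per gene were deposited by the authors, whose provider made them with HISAT2 2.0.5, StringTie 1.3.3b and featureCounts 1.5.0-p3, as named in the submitters' processing notes, from poly(A)-selected, strand-specific, paired-end libraries. The authors also deposited FPKM, which equal each gene's count over its length and the library total, times a constant per library (0.943 to 1.12). That constant times the TMM factor was 1.00 to 1.02 in every library. FPKM levels and limma on FPKM therefore carry nearly the same scaling as the edgeR tests and are no separate check of it. FPKM served for levels and comparisons between genes, and counts for the tests. Genes were filtered with filterByExpr, scaled by TMM and tested in edgeR 4.0.16 (R 4.3.3) with glmQLFit and glmQLFTest, 1 coefficient per condition. The scripts were tested on simulated data.

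Alternatives were DESeq2 1.42.0, limma 3.58.1 on log2(FPKM + 1) and log2(FPKM + 0.1), RLE size factors, total library size, edgeR on only the conditions compared, no filter or a mean of at least 50 counts, the study's threshold, a replicate block and leaving out each library. Log2 CPM used a prior count of 2. Named are the 10 genes, further Toll-like receptors, up to 6 called pathway genes with a mean of at least 50 counts and the largest |log2FC| per planned comparison, up to 3 of the most similar genes of each receptor, and treatment check genes. Some items are withheld for evaluations and are not named. The members and lists were chosen with earlier results of these data known. The submitters name the build as GRCm38/mm39, and positions are those of the authors' files. Marker genes of other cell types were summed in FPKM. Figures were drawn with matplotlib 3.10.9 and sequences read in Python 3.11.15.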

Additional observations from a re-analysis of the deposited data

Results flagged for a closer look

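The change with TBHQ differed between stimulated and unstimulated cells for 4 of the receptor genes in edgeR's test of the difference itself, a comparison chosen after the data had been seen. Of all tested genes 30.0% were called in at least 1 of the 2 differences. *Tlr2* rose with TBHQ alone and fell with TBHQ before a stimulus, a difference of -0.64 on the log2 scale for LPS (adjusted p = 2.37e-08) and -0.69 for PIC (adjusted p = 2.23e-09). *Tlr4* fell with TBHQ alone and not before a stimulus, a difference of 0.29 for LPS (adjusted p = 0.0138) and 0.44 for PIC (adjusted p = 1.95e-04). The LPS value of *Tlr4* was not called with limma on log2(FPKM + 1) (adjusted p = 0.0968), nor without control replicate 2 (0.0502), control replicate 3 (0.0558), LPS replicate 1 (0.0533) or LPS + TBHQ replicate 3 (0.0586). *Tlr13* rose more with TBHQ when a stimulus followed, by 0.25 for LPS (adjusted p = 0.0107) and 0.30 for PIC (adjusted p = 0.00131). *Tlr7* differed for LPS by 0.19 (adjusted p = 0.0344), which DESeq2 did not call (adjusted p = 0.0524) and which was lost without control replicate 2 (0.0553), control replicate 3 (0.0954), LPS replicate 1 (0.0856), LPS replicate 3 (0.0677), TBHQ replicate 2 (0.0976), LPS + TBHQ replicate 1 (0.0679) or LPS + TBHQ replicate 3 (0.0873). The unstimulated TBHQ cells were harvested 12 h before the stimulated ones, so stimulus and time after TBHQ cannot be told apart in these differences. *Cd14* gave -0.12 ± 0.051 (adjusted p = 0.0720) for PIC, not called in edgeR's fit to all libraries with TMM scaling and the default filter, and called by DESeq2 (adjusted p = 0.0275) and by edgeR with RLE size factors (0.0319), without a filter (0.0369), with a mean of at least 50 counts (0.0248) or on the conditions compared only (0.0339). It was also called without control replicate 1 (0.0268), LPS replicate 2 (0.0191), LPS replicate 3 (0.0238), PIC replicate 1 (0.0193), TBHQ replicate 1 (0.0393) or PIC + TBHQ replicate 1 (0.0465).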

How the results depend on the processing

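The next totals cover every alternative except the study's threshold, with calls at an adjusted p below 0.05. Of the log2FC values of the 10 genes, 2810 kept their direction and their side of that limit. A further 62 fell short of it, 22 newly passed it and 61 changed sign. Values that changed sign belonged to results that edgeR did not call. Where no cause is named, the cause was not tested. With the study's threshold of an adjusted p below 0.01 and a |log2FC| above 2, *Tlr8* was the 1 gene called, lower, in LPS, PIC, LPS + TBHQ and PIC + TBHQ against the control, and every other count of called genes was 0, because the fold limit is larger than the changes of the other 9 genes. The share of all tested genes past the study's threshold is not given, so these counts describe the 10 genes only. *Tlr8* was kept in the test for its high libraries, and with a mean of at least 50 counts it is not tested. For the other settings, values of genes that changed sign and each count of called genes that differed from the report's are given, and calls of single genes that were lost or gained are given where the gene is described. Limma on log2(FPKM + 0.1) lost the same calls as on log2(FPKM + 1). With total library size, the values were 5 called lower and *Tlr1* -0.011 and *Tlr13* -0.072 for LPS against control, and 3 called higher and 5 called lower and *Tlr13* -0.21 for PIC against control, and 2 called higher for LPS + TBHQ against LPS, and 3 called higher and 3 called lower for PIC against LPS, and *Tlr2* 0.0014 for the TBHQ difference between PIC and LPS, and 3 called higher and 5 called lower and *Tlr1* -0.029 for PIC + TBHQ against control, and *Tlr3* 0.017 and *Cd14* 0.0050 for the TBHQ difference between LPS and no stimulus, and *Tlr1* 0.066 and *Tlr7* 0.065 for the TBHQ difference between PIC and no stimulus. With a mean of at least 50 counts, the values were 3 called lower for LPS against control, and 2 called lower for PIC against control, and 4 called higher and 4 called lower and *Tlr4* 0.015 and *Tlr1* 0.18 (newly called, adjusted p = 0.0480) for LPS + TBHQ against control, and 3 called lower for PIC + TBHQ against control, and 2 called lower for the TBHQ difference between PIC and no stimulus. With DESeq2, the values were 2 called higher for PIC + TBHQ against PIC, and 3 called higher and *Tlr13* 0.0018 for PIC against LPS, and *Tlr4* 0.0059 for LPS + TBHQ against control, and 3 called lower for PIC + TBHQ against control, and 2 called higher for the TBHQ difference between LPS and no stimulus, and 2 called lower for the TBHQ difference between PIC and no stimulus. With limma on log2(FPKM + 1), the values were 1 called higher for PIC + TBHQ against PIC, and 1 called lower and *Tlr13* 0.0044 for PIC against LPS, and *Tlr4* 0.0095 for LPS + TBHQ against control, and 3 called lower for PIC + TBHQ against control, and 2 called higher for the TBHQ difference between LPS and no stimulus, and *Tlr8* 0.014 for the TBHQ difference between PIC and no stimulus. With limma on log2(FPKM + 0.1), the values were 1 called higher for PIC + TBHQ against PIC, and 1 called lower and *Tlr13* 0.0047 for PIC against LPS, and *Tlr4* 0.010 for LPS + TBHQ against control, and 3 called lower for PIC + TBHQ against control, and 2 called higher for the TBHQ difference between LPS and no stimulus. With edgeR on the conditions compared only, the values were 3 called higher for PIC against LPS, and *Tlr4* 0.0068 for LPS + TBHQ against control, and 2 called lower for the TBHQ difference between PIC and no stimulus. With no filter on low counts, the values were 3 called higher for PIC against LPS, and *Tlr4* 0.013 for LPS + TBHQ against control, and 3 called lower for PIC + TBHQ against control, and *Tlr3* 0.0071 for the TBHQ difference between LPS and no stimulus, and 2 called lower for the TBHQ difference between PIC and no stimulus. With RLE size factors, the values were *Tlr13* 0.0029 for PIC against LPS, and *Tlr4* 0.0047 for LPS + TBHQ against control, and 2 called lower for the TBHQ difference between PIC and no stimulus. Leaving out each library in turn gave 3 to 4 genes called lower and *Tlr13* -0.034 to 0.064 for LPS against control. It gave *Tlr7* -0.078 to 0.0026 and *Tlr13* -0.011 to 0.050 for PIC against control. It gave 3 to 4 genes called lower for TBHQ against control. It gave 1 to 2 genes called higher and 2 to 3 genes called lower and *Tlr7* -0.0072 to 0.036 for LPS + TBHQ against LPS. It gave 1 to 3 genes called higher and *Tlr9* -0.23 to 0.10 for PIC + TBHQ against PIC. It gave 3 to 4 genes called higher and 1 to 2 genes called lower and *Tlr13* -0.042 to 0.056 for PIC against LPS. It gave 0 to 1 genes called lower and *Tlr2* -0.15 to 0.018 and *Tlr6* -0.060 to 0.080 and *Tlr13* -0.022 to 0.083 for the TBHQ difference between PIC and LPS. It gave *Tlr4* -0.076 to 0.045 for LPS + TBHQ against control. It gave 3 to 4 genes called lower for PIC + TBHQ against control. It gave 1 to 3 genes called higher and *Tlr3* -0.12 to 0.072 and *Cd14* -0.062 to 0.0038 for the TBHQ difference between LPS and no stimulus. It gave 1 to 2 genes called lower and *Tlr1* -0.070 to 0.058 and *Tlr7* -0.074 to 0.010 for the TBHQ difference between PIC and no stimulus.

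With a replicate block the counts of called genes did not move (PIC against the control: 5 higher and 3 lower). The replicate numbers were not treated as pairing, since same-numbered libraries of different conditions correlated by -0.044 to 0.065 in their deviations over 45 pairs, with 0 above 0.1, and 7 of 18 libraries correlated best with their own number. Depth limits *Tlr8* and *Tlr9* most, and the 2 differences between stimulated and unstimulated cells were chosen after seeing the data.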
